A study of Mus musculus with 3 samples.

Results

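The genes described are Abca1, Abcg1, Nr1h2, Nr1h3, Rxra, Rxrb and Mylip, which encode the oxysterol receptors LXR, their RXR partners and 3 of the genes that LXR switches on. They were chosen by symbol, with earlier results of these data known, and each was read from its brightest named probe set. Of these 7 genes, 6 had a named probe set, 1 each, among 19505 genes. Nr1h2, the gene for LXR-beta, had none and was not measured here.

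The samples were CD8 cells of mouse, stimulated with CD3 and CD28 and cultured under Tc1 cytokine conditions, which drive CD8 cells toward interferon-gamma-producing cytotoxic cells. The control cells received no added cholesterol, and the other cells received cholesterol at 0.5 or at 0.75 microgram per ml (µg/ml) under the same Tc1 conditions. Total RNA of each condition was hybridised to 1 whole-transcript array. There are no replicates, so no difference below has a test or a replicate error, and precision is limited by having so few arrays. The labels give neither the strain, age and number of mice nor the time with cholesterol and its carrier, so cholesterol and carrier cannot be told apart. The 3 arrays had median intensities between 32.4 and 33.0. The highest 95th percentile of the 5222 negative-control probe sets on the 3 arrays, 102, is called the background level here. All 8 measured CD8 T cell marker genes were above it on every array, with the co-receptor gene Cd8a at 4225, 4164 and 3313 across control, 0.5 and 0.75 µg/ml.

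LXR is a nuclear receptor that senses oxysterols, the oxidised forms of cholesterol. Paired with RXR, the retinoid X receptor, it binds DNA at a repeated AGGTCA core and switches on genes that lower the cholesterol content of the cell. ABCA1 moves cholesterol and phospholipid onto lipid-poor apolipoprotein A-I, and ABCG1 moves cholesterol to high-density lipoprotein. MYLIP, also called IDOL, is a ubiquitin ligase that sends lipoprotein receptors for degradation and so limits cholesterol uptake. In T cells, LXR activity is known to restrain proliferation after antigen receptor stimulation.

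The promoters of Abca1 and Rxra are shown because, of the windows of the 6 genes that had one, theirs alone held a match to the element that LXR binds. The windows are from RefSeq on the assembly GRCm38.p6 and run from 250 bases before the annotated start to 50 bases after it. Abcg1 had no entry. The windows were searched on both strands for DR4, the idealised element of LXR with RXR, which is AGGTCA, 4 free bases and AGGTCA again, allowing up to 3 mismatches in its 12 defined bases. Capitals mark the match.
Abca1, chr4:53159846-53160145, minus strand: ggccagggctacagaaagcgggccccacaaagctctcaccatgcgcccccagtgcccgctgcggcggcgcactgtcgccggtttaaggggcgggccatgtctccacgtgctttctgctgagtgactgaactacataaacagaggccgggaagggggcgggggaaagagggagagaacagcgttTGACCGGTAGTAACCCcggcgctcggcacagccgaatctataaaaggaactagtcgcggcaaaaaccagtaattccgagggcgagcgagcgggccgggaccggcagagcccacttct
Rxra, the second of 2 annotated starts, chr2:27709042-27709341, plus strand: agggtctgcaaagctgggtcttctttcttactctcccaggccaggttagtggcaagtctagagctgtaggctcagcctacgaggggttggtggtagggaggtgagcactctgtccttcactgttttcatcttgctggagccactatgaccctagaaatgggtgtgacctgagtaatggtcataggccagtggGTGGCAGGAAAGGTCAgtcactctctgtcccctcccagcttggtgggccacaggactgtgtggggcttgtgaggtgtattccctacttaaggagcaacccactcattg

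Read in the direction of the motif, the Abca1 match is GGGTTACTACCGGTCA, which lies on the opposite strand with its lowest position at -67 from the start. It carries the substitutions A1G, C5T and A11C, counted from 1 at the motif's 5′ end. The Rxra match is GTGGCAGGAAAGGTCA, on the gene strand from position -58, with the substitutions A1G, G2T and T4G, so its second AGGTCA is intact and its first is not. No window of Mylip, Nr1h2, Nr1h3 or Rxrb, nor the window at the first Rxra start, held a match within 3 mismatches. Of all 32851 promoter windows, 21.9% held such a match and 3.02% held one with at most 2 mismatches, so a match at this limit is common. It does not set Abca1 and Rxra apart from other genes. The Abca1 and Mylip windows shared a TATAAA box on the gene strand, at -29 and -32 from the start, which 8.32% of all windows held. These matches are descriptions of letters and not measured binding sites.

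The exporter gene Abcg1 was more than 2-fold higher than in the control at both doses of cholesterol. The exporter gene Abca1 and the receptor gene Rxra were under the background level in the control and at 0.5 µg/ml and above it at 0.75 µg/ml. Set against that level at the higher dose, Abca1 was at least 1.60-fold higher and Rxra at least 1.69-fold higher. Mylip was higher at both doses, by 1.32-fold or more and 1.69-fold or more in dose order. All these bounds take the brighter value as measured, with no error. Rxrb was within 1.21-fold of the control, and Nr1h3 was under the background level throughout. In these cultures a difference in RNA per cell cannot be told apart from one in the mix of cells.

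Rxra encodes the RXR form that is widely found as the partner of LXR and of other nuclear receptors. Its intensity was 36.0, 53.5 and 172 on the control, 0.5 and 0.75 µg/ml arrays. The control and the lower dose were under the background level, and the higher dose alone was above it. The log2 difference from the control was 0.57 at 0.5 µg/ml and 2.25 at 0.75 µg/ml, or at least 1.69-fold higher at the higher dose with the control set to the background level. Of the negative controls on the control array, 19.0% were as bright as Rxra or brighter, against 2.83% on the 0.75 µg/ml array.

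Rxrb, a second RXR gene, was above the background level on all arrays, at 260, 237 and 215 on the control, 0.5 and 0.75 µg/ml arrays. It was slightly lower with each dose, by log2 differences of -0.13 and -0.27 from the control. At 0.75 µg/ml 24.8% of the 7371 genes at or above the background level on both arrays compared differed by as much or more, so a difference of this size was ordinary.

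Nr1h3, the gene for LXR-alpha, the form typical of liver and macrophages, was at 33.0, 45.6 and 37.5 in the control and at the rising doses. All values were under the background level, and between 13.4% and 20.9% of negative controls on the same array were at least as bright. No fold is given for it. Rxrg, the third RXR gene, was also under the background level on every array, at 23.2, 19.3 and 17.5.

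**Figure D1:**
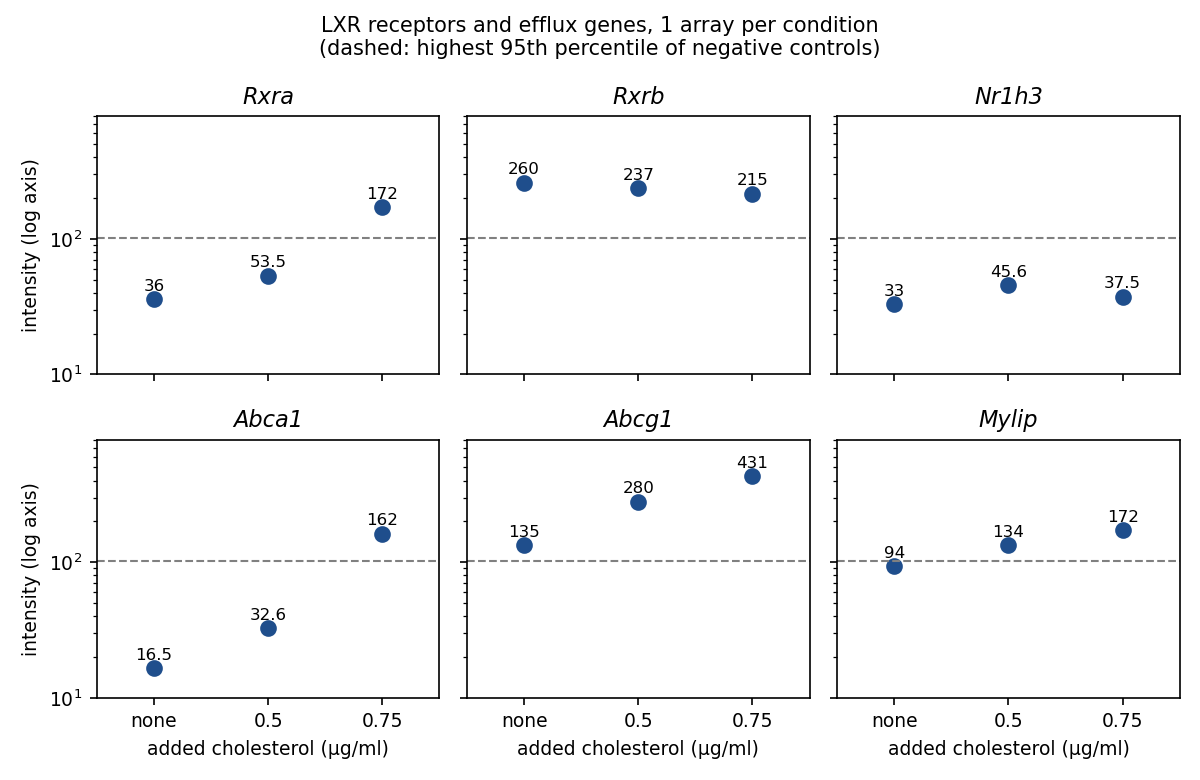
Intensity of each measured gene (log axis) on the control, 0.5 and 0.75 µg/ml arrays, 1 point per array, with the background level of 102 as a dashed line. Abcg1 and Rxrb are above the line on all arrays, Abca1 and Rxra cross it only at 0.75 µg/ml, and Nr1h3 stays under it.

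Abca1 was at 16.5, 32.6 and 162 on the control, 0.5 and 0.75 µg/ml arrays. The first 2 values were under the background level, where 41.5% and 19.7% of negative controls were at least as bright, against 3.03% for the value at 0.75 µg/ml. The log2 difference between the higher dose and the control was 3.30 as deposited and 0.67 with the control raised to the background level. The latter gives a bound of 1.60-fold, with the value at 0.75 µg/ml taken as measured. Between the doses the log2 difference was 2.32 as deposited, with the same bound. Abca1 reached the level filter through its value at 0.75 µg/ml.

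Abcg1 was at 135, 280 and 431 on the control, 0.5 and 0.75 µg/ml arrays. It was above the background level on all 3 arrays and in the same order as the dose. The log2 difference from the control was 1.06 (2.08-fold) at the lower dose and 1.68 (3.20-fold) at the higher dose. Among genes at or above the background level on both arrays compared, these were the second highest of 7510 differences and the highest of 7371. Among all 10940 genes past the level filter, dim ones included, Abcg1 ranked 5th and 8th from the highest. From the lower to the higher dose Abcg1 was 1.54-fold higher, and 3.04% of the 7409 genes measured above background at both doses differed by as much or more.

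Mylip was at 94.0, 134 and 172 on the control, 0.5 and 0.75 µg/ml arrays. The control value was just under the background level and both cholesterol values were above it. The log2 difference from the control was 0.51 at the lower dose, at least 1.32-fold, and 0.87 at the higher dose, at least 1.69-fold. Between the doses, where both values were above background, it was 1.28-fold higher, and 11.9% of 7409 genes differed by as much or more.

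**Figure D2:**
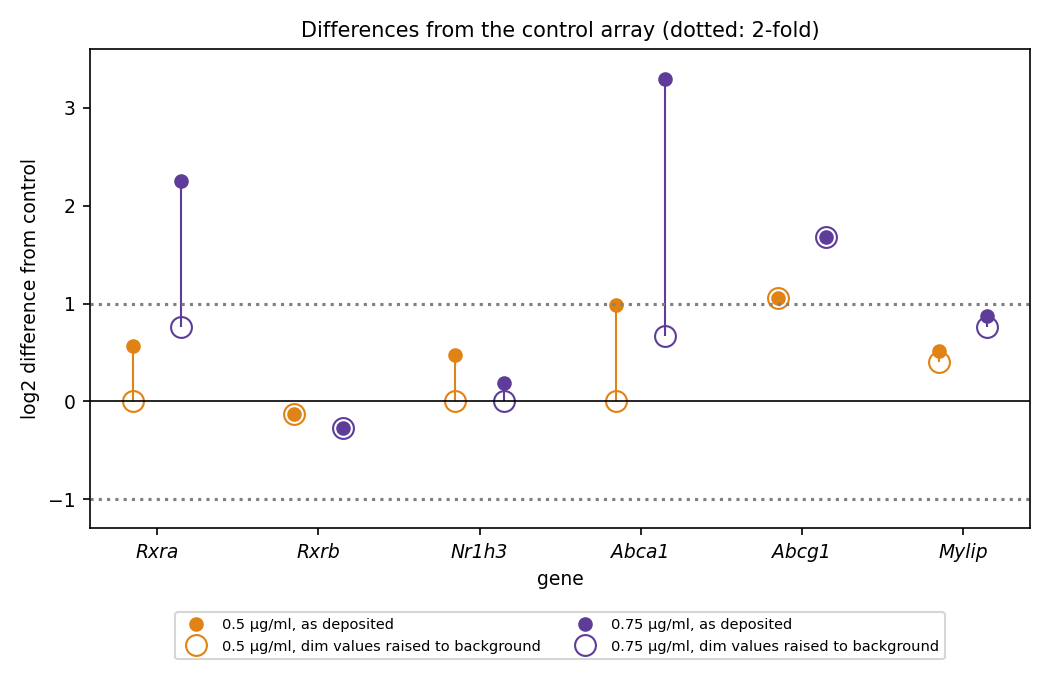
Log2 difference of each gene from the control at 0.5 µg/ml (orange) and 0.75 µg/ml (purple), as deposited (filled) and with values under 102 raised to that level (open rings). Only Abcg1 stays past the dotted 2-fold line when dim values are raised, with Abca1 at 0.67 and Rxra at 0.76 for 0.75 µg/ml.

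At 0.5 µg/ml, 1 of the 6 measured genes, Abcg1, was at least 2-fold higher than the control, and 0.0914% of the 10940 genes past the level filter were. Abca1 missed the threshold at a log2 difference of 0.98, with both values under the background level. At 0.75 µg/ml, 3 of the 6 were at least 2-fold higher as deposited, against 0.356% of genes. With dim values raised to the background level, 1 of the 6, Abcg1, was, against 0.137% of genes. Between the doses 2 of the 6, Abca1 and Rxra, had a deposited value at least 2-fold higher at the higher dose, against 0.402% of genes. With dim values raised none of the 6 did, against 0.11% of genes. None was 2-fold lower in any of the 3 comparisons. The shares of genes past the level filter that were lower were 0.0548% at 0.5 µg/ml, 1.57% at 0.75 µg/ml and 1.19% between the doses. The median log2 difference of the 6 genes was 0.54 for the lower dose and 1.28 for the higher, and that of all genes past the level filter was 0.01 and 0.00. With dim values raised it was 0.00 and 0.72 for the 6 genes. Both cholesterol arrays are set against the same control array, so these differences are not independent of each other. The genes were chosen with earlier results of these data known. Their counts and medians beside those of all genes are therefore descriptions only.

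Differences of 2-fold or more upward were more common for genes that start dim. Among the 3252 genes past the level filter but dimmer in the control than the background level, as Abca1, Rxra, Mylip and Nr1h3 were, 0.861% were 2-fold higher or more at 0.75 µg/ml. Among the 7688 genes above it, as Abcg1 and Rxrb were, 0.143% were. The negative controls gave the spread of probe sets with no target. Of all 5222, 3.12% were 2-fold higher or more at 0.75 µg/ml than in the control. The largest upward log2 difference among them was 1.98, under the 3.30 of Abca1 and the 2.25 of Rxra. Downward, 5.02% were 2-fold lower or more, and the lowest log2 difference was -2.72, larger in size than the 2.25 of Rxra. At 0.5 µg/ml the largest upward one was 2.68, above the difference of every gene described here. Between the doses it was 2.87, above the 2.32 of Abca1 and the 1.68 of Rxra. The positive controls past the level filter, which are brighter, had an SD of 0.31 between 0.75 µg/ml and the control and a largest upward difference of 1.38. At 0.5 µg/ml their largest upward difference was 1.06, as large as that of Abcg1, and their lowest was -2.34. Over all 1324 positive controls, the largest upward differences were 3.64 at 0.5 µg/ml and 2.16 at 0.75 µg/ml, both above those of Abcg1.

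**Figure D3:**
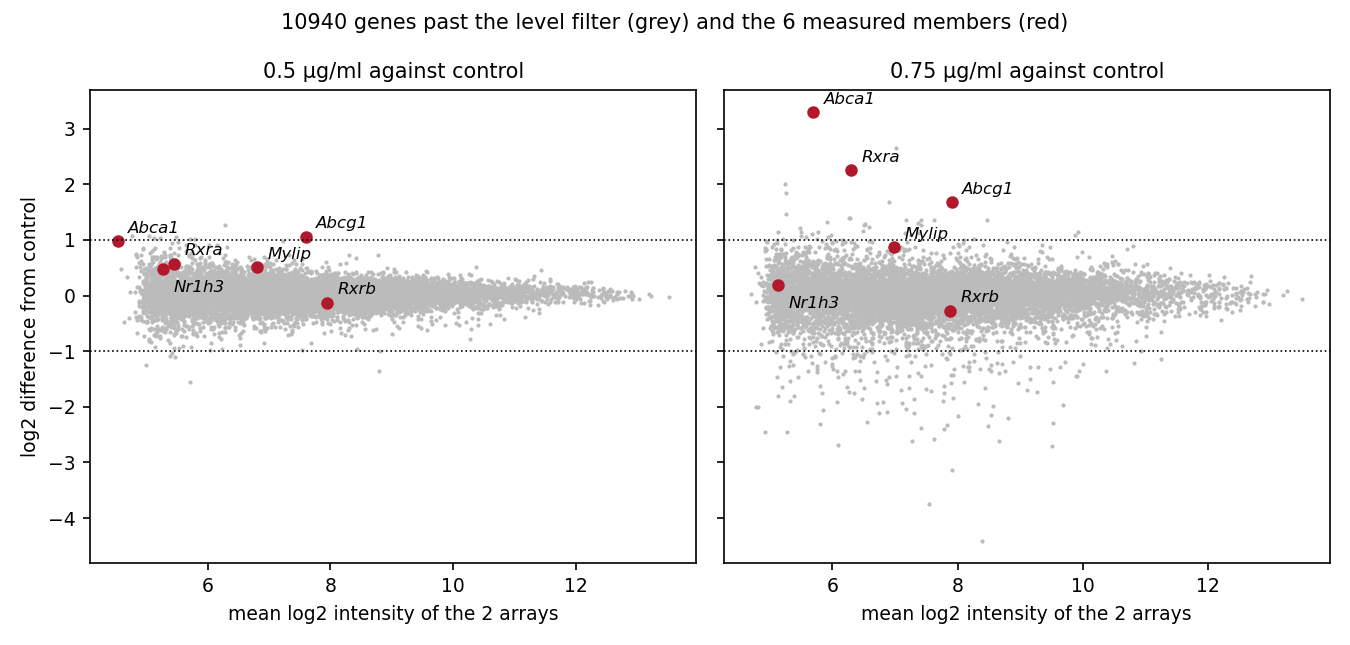
Log2 difference from the control against the mean log2 intensity of the arrays compared, for 0.5 µg/ml (left) and 0.75 µg/ml (right), with the 10940 genes past the level filter in grey and the 6 measured genes in red. Abcg1 lies above the 2-fold line on both panels, and the positions of Abca1, Rxra, Mylip and Nr1h3 use control values under the background level.

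None of the other measured LXR target genes on the list was 2-fold higher at either dose. Of all 19505 genes, 0.128% were at 0.5 µg/ml and 0.42% at 0.75 µg/ml, so having none is near the share over all genes. Of 23 listed, 19 were measured and 10 reached the background level on at least 1 array. In the other direction, 1 was 2-fold lower at 0.5 µg/ml, against 0.149% of all 19505 genes, and 2 were at 0.75 µg/ml, against 1.07%. Their median log2 difference was -0.08 for the lower dose and 0.00 for the higher. Tgm2, a transglutaminase gene that LXR induces in macrophages, was at 709, 276 and 81.2 across control, 0.5 and 0.75 µg/ml, so it was at least 6.97-fold lower at the higher dose. Npc2, whose product carries cholesterol out of lysosomes, was at 596, 443 and 232. Smpdl3a, a nucleotide phosphodiesterase gene, was at 197, 223 and 105, and the stearoyl-CoA desaturase gene Scd1 at 368, 399 and 215. Smpdl3a and Scd1 were thus slightly above the control with the lower dose and below it with the higher.

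Genes that make or inactivate oxysterols were dim. All 11 listed were measured, 1 reached the background level on an array, and none was 2-fold different at either dose. Of all 19505 genes, 0.277% were at 0.5 µg/ml and 1.49% at 0.75 µg/ml, so having none is near the share over all genes. That gene, Hsd11b1, whose enzyme also acts on 7-oxygenated sterols, was at 172, 191 and 117. The cholesterol 25-hydroxylase gene Ch25h was at 11.7, 15.5 and 16.5, under the background level on every array, and so was the oxysterol sulfotransferase gene Sult2b1 at 61.4, 74.0 and 40.3.

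Among 14 measured genes for other receptors that pair with RXR or belong to its class, 8 reached the background level. At 0.75 µg/ml none was 2-fold higher and 1 was 2-fold lower, with a median of -0.14. The shares over all 19505 genes were 0.42% and 1.07%. The 1 lower gene, Ppara, named after its value was seen, was under the background level on every array. Nr4a2, an orphan receptor gene that pairs with RXR, was at 375, 311 and 212, and the vitamin D receptor gene Vdr at 155, 197 and 170. Pparg was at 76.0, 77.4 and 105, and Nr4a1 at 116, 114 and 92.5.

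Corepressors and coactivators of LXR were bright and near the control. Of 16 measured, 15 reached the background level and none was 2-fold different at either dose, with medians of -0.01 and 0.02. The corepressor subunit gene Tbl1xr1 had log2 differences of 0.27 and 0.17, the coactivator genes Ncoa3 -0.27 and -0.21 and Crebbp -0.24 and 0.02, and Ppargc1b 0.26 and 0.04, at 0.5 and 0.75 µg/ml in that order. The ubiquitin-conjugating enzymes that work with MYLIP were likewise near the control, with Ube2d1 at 425, 388 and 370, Ube2d2a at 420.2, 462 and 403 and Ube2d3 at 996, 972 and 1047. The lipoprotein receptor gene Lrp8, whose protein MYLIP marks for degradation, was at 223, 212 and 212. Vldlr, a further receptor of that kind, was under the background level on all arrays, at 59.8, 48.0 and 28.9.

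Genes of sterol synthesis and its regulation were lower on the same arrays. The transcription factor SREBP2 drives them, and they are known to respond to cholesterol opposite to LXR targets. Of 18 measured, 17 were at least 2-fold lower at 0.75 µg/ml, against 1.57% of genes past the level filter. None was at 0.5 µg/ml, against 0.0548%, and the medians were -1.82 at 0.75 µg/ml and -0.51 at 0.5 µg/ml. Hmgcs1 was at 1848, 1295 and 285.

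**Figure D4:**
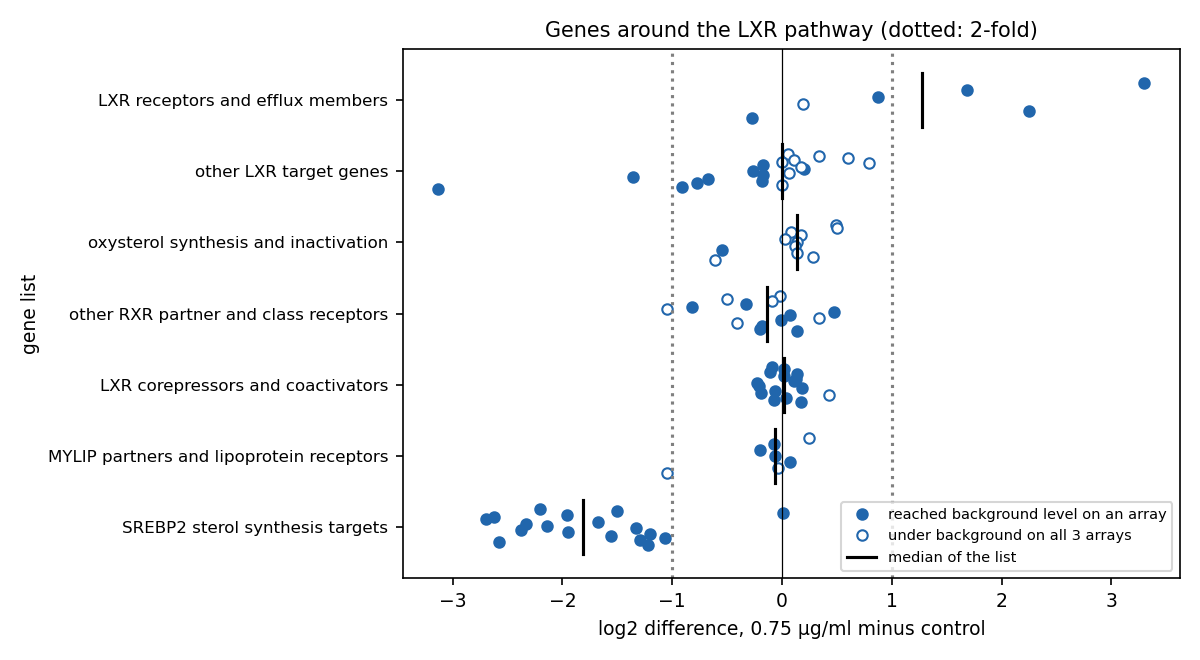
Log2 difference between 0.75 µg/ml and the control for each measured gene of 7 lists, 1 point per gene, filled where the gene reached the background level on an array, with the list median as a black bar. The 3 genes right of the 2-fold line, on deposited values, are Rxra, Abca1 and Abcg1, and the sterol synthesis list lies to the left of the lower line except for 1 gene.

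Macrophages are a cell type in which Abca1, Abcg1 and Nr1h3 are well known. None of the 13 measured macrophage and monocyte markers reached the background level on any array, and their summed intensity was 248, 262 and 249 on the control, 0.5 and 0.75 µg/ml arrays. Adgre1 was at 20.4, 20.5 and 18.5 and Csf1r at 12.2, 10.9 and 12.6. Of 9 dendritic cell markers, 2 reached the background level in the control and none at 0.75 µg/ml, with a summed intensity of 531, 506 and 307. These 2 were H2-Ab1, at 266, 285 and 83.4, and H2-Eb1, at 153, 103 and 99.1. The rest were under the background level on every array. Against the control, 7 of the 9 were higher at 0.75 µg/ml and 2 lower, with a median log2 difference of 0.18. The summed intensity was between 247 and 274 for B cell markers, between 258 and 293 for CD4 T cell markers, and between 274 and 297 for erythroid and platelet markers. Markers of neutrophils and mast cells summed to 251, 198 and 177, of which Kit made up 133, 88.3 and 42.4. Whether these sums reflect numbers of cells was not tested. Markers of NK and gamma-delta T cells summed to 800.4, 941 and 1073 across the rising doses, of which Eomes, a gene that CD8 cells also express, made up 560, 630 and 806. The part of that list in the values of Abca1, Abcg1 and Rxra was not tested.

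The genes whose pair of log2 differences from the control lay nearest to a given gene were found among 7821 genes that passed the level filter, could be named and reached the background level on at least 1 array. Likeness is the distance between those pairs over 3 arrays. The nearest to Abcg1 were the galectin gene Lgals3, at a distance of 0.32 with 106, 209 and 273, and Fam20a, at 0.33 with 47.6, 88.8 and 125. Slco4a1, Ell2 and Klrc1 followed at 0.63 to 0.72, and no gene lay within 0.25. Of these 5, Lgals3 alone was above the background level in the control, so the distances of the others use a dim value. Mylip had 26 of the 7821 genes within 0.25, so more genes lay near it than near Abcg1. Of these, Mapk13, Ctla2b, Zdhhc2, Ppt1 and Ifitm3 were nearest at 0.03 to 0.12. The control values of Mylip and Mapk13 were dim. Distances to Abca1 and Rxra are not given, since both genes were under the background level on the control and 0.5 µg/ml arrays.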

How the data were processed

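The deposited table holds 1 linear intensity per probe set for each of 3 arrays. Per the labels, Trizol RNA was labelled with biotin for whole-transcript sense targets. The sources used here do not give the scanner software, background correction, normalization or genome build. Of 22206 transcript probe sets, 19572 carry 1 symbol in the platform annotation, 0 carry several, and 2634 are unnamed here. The brightest probe set stood for each of the 55 genes with several. Intensities were turned to log2 as deposited. The level filter kept the 10940 genes, all 6 measured members among them, with a mean log2 value of at least 5.02 (an intensity of 32.4), the median of all probe sets.

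A difference is one of log2 values between 2 arrays, counted at 2-fold or more. Bounds of a fold raise the dim value to the background level and take the brighter value as measured, so they carry no error of that value. The members and gene lists were chosen with earlier results of these data known. Named were the members, up to 4 genes of each list with the largest difference among those that reached the background level, the 5 genes nearest in pattern to Abcg1 and to Mylip (not given for Abca1 and Rxra, which were dim on 2 arrays), and Cd8a, Hmgcs1, Adgre1 and Csf1r. Rxrg, Ch25h, Sult2b1, Vldlr, Eomes, H2-Ab1, H2-Eb1 and Kit were named after their values were seen. Alternatives were quantile normalization, median centring, raising dim values to the background level, a pseudocount of 16, the mean over probe sets, no level filter and a stricter one. Python 3.11.15 ran the calculations with numpy 2.4.6 and pandas 2.3.3, and matplotlib 3.10.9 drew the plots. The counting step was tested on simulated data.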

Additional observations from a re-analysis of the deposited data

How the results depend on the processing

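No paired analysis was possible because each condition had 1 array. The results kept their direction wherever the difference was not 0 under the 7 alternatives, and of 123 single-gene values 118 stayed on their side of the 2-fold threshold. That count includes values that could not move. Each measured gene had 1 probe set, so the mean over probe sets left its value unchanged, and so did both changes of the level filter. With values under the background level raised to it, 1 of the 6 genes in place of 3 was 2-fold higher at 0.75 µg/ml, and 0 in place of 2 between the doses, since Abca1 and Rxra dropped to 0.67 and 0.76 in each. With a pseudocount of 16, 0 in place of 1 was 2-fold higher at 0.5 µg/ml, with Abcg1 at 0.98. Over the alternatives Abcg1 ranged from 0.98 to 1.07 at 0.5 µg/ml and from 1.57 to 1.74 at 0.75 µg/ml. Counts over all genes moved more. At 0.5 µg/ml 10 genes were higher and 6 lower, against 2 and 1 with dim values raised, 2 and 2 with the pseudocount, 25 and 29 with no level filter and 3 and 2 with the stricter one. At 0.75 µg/ml 39 were higher and 172 lower, against 15 and 98 with dim values raised, and 25, 82 and 24 were higher under the other 3 settings. Between the doses 44 were higher and 130 lower, against 12 and 75 with dim values raised, and 27, 76 and 26 higher. Dim signal is a limit beside the single array per condition, since 4 of the 6 genes were dimmer than the background level in the control.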
